A study of Mus musculus with 35 samples.

Results

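Cells carrying ACSA2, a surface protein of astrocytes that is the product of Atp1b2, were taken from the hypothalamus and the cortex of male C57BL/6JRj mice on a high-fat high-sugar diet (HFHS, 58%), and their RNA was compared between the regions. The comparison rests on 11 of the 35 libraries of the series, 5 from hypothalamus and 6 from cortex, chosen by their titles. Per the labels, the diet began at 8 to 9 weeks of age and lasted 4 months, no genotype or other agent differed, and each replicate pooled tissue of 2 animals. Per the labels' protocols, both fractions were sorted magnetically for ACSA2, and the libraries came from SMART-Seq v4 Ultra Low Input cDNA, which carries no strand information. Hypothalamus cells passed over MS columns, and cortex cells passed over the larger LS columns with scaled volumes, so column, volume and region cannot be told apart in any value below. The same 2 regions on standard chow (SC), 6 libraries each from other mice, serve as a reference. The labels do not say whether pools were sorted on separate days or whether the pools of both regions came from the same animals, so p-values measure the spread between pools.

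Astrocytes take up glutamate and potassium, supply lactate and cholesterol to neurons and cover blood vessels with their endfeet. Their expression differs between brain regions, in part because they keep transcription factors of the embryonic territory they arose from: telencephalon for the cortex, ventral diencephalon for the hypothalamus. The hypothalamus also borders the third ventricle, which is lined by ciliated ependymal cells and by tanycytes, radial glia that sense metabolites and carry thyroid hormone and leptin signals.

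Depth in the 11 libraries ran from 47578560 to 64543071 estimated reads. Replicates correlated at r = 0.933 to 0.957 in hypothalamus and 0.876 to 0.96 in cortex (log2 CPM, where CPM are counts scaled by library size with TMM factors). Cortex replicate 6 stood apart by a mean transcript length of 1191 bases, weighted by transcript abundance (TPM), against 1533 to 1801 in the other 10. Hypothalamus replicate 2 stood apart by its astrocyte transcripts, given below.

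Of 18638 genes tested, 2241 were higher and 1335 lower in hypothalamus than in cortex on HFHS at an adjusted p under 0.05 (edgeR quasi-likelihood test, Benjamini-Hochberg over all genes). These counts are 12% and 7.16% of the genes tested, 19.2% in all, and the median log2 fold change of all genes tested was -0.02. A difference of at least 2-fold was fitted for 2005 of the higher and 992 of the lower genes. Every HFHS count of a list below is read against those shares. With libraries scaled by total count alone, the median of all genes rose to 0.19, and higher genes made up 77.1% of the calls in place of 62.7%. Without cortex replicate 6 and hypothalamus replicate 2, 2710 genes were higher and 2596 lower, so that higher genes made up 51.1%.

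The region difference on HFHS had much in common with the one on SC, in which no library is shared. On SC, 6768 of 18656 genes passed the threshold, 36.3%, of which 3542 were higher and 3226 lower in hypothalamus. Counts of lists on SC below are read against these numbers. Across 18160 genes tested on both diets, the fitted log2 fold changes correlated at Spearman's rho = 0.734 and Pearson's r = 0.838, a description across genes that are not independent replicates. Of 3546 genes called on HFHS, 3419 had the same sign on SC and 2758 (77.8%) were also called there in the same direction, which is 41.4% of the 6667 genes called on SC. Another 782 were not called on SC, and 6 were called in the opposite direction. The median standard error (SE) of a fold change was 0.381 on HFHS and 0.341 on SC.

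**Figure D1:**
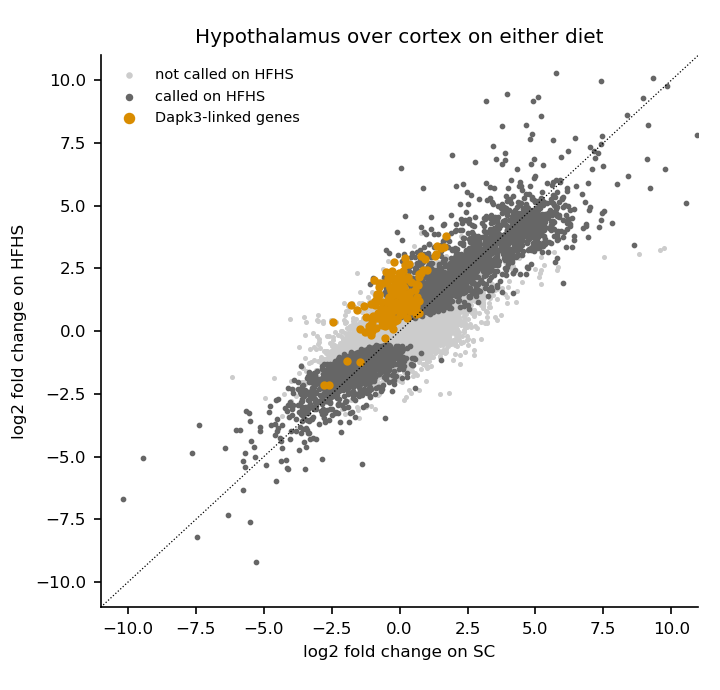
Fitted log2 fold change of hypothalamus over cortex on SC (x axis) and on HFHS (y axis) for the 18160 genes tested on both diets, 1 point a gene, dark gray where called on HFHS, light gray where not, and orange for 170 genes linked to Dapk3, described last. The points lie along the dotted line of equal values (Spearman's rho 0.734), while most of the orange points lie above it.

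Both fractions carried the defining markers of astrocytes together with transcripts of other cells. Atp1b2, the gene of the sorted antigen, stood at 365, 1806, 398, 623 and 262 CPM in hypothalamus replicates 1 to 5, and at 560, 897 and 1486 CPM in the lowest, median and highest cortex library. The groups overlapped, and the fitted difference was -0.44 on the log2 scale (SE 0.46, adjusted p = 0.57), but -1.23 (adjusted p = 0.0156) without hypothalamus replicate 2. Sox9, a glial transcription factor, stood at 290, 422, 240, 416 and 385 CPM against 318, 370 and 396, and S100b at 594, 530, 587, 384 and 506 against 222, 378 and 985. Neither passed the threshold (log2 fold changes -0.07 and 0.18, adjusted p = 0.862 and 0.766), and Sox9 turned to 0.13 with total-count scaling and to 0.01 and 0.03 without hypothalamus replicates 1 and 3.

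The summed level of 18 astrocyte genes was 10890, 32810, 8965, 10390 and 11090 CPM in hypothalamus and between 27750 and 66400 CPM in cortex. Hypothalamus replicate 2 lay within the cortex range, and the other 4 lay under it. Of the 18 genes, 5 were lower and 0 higher in hypothalamus, and the median log2 fold change was -0.73. Without hypothalamus replicate 2, 15 of the 18 were lower and the median was -1.41. Fewer astrocytes in the fraction and less of these RNAs per astrocyte cannot be told apart in such bulk samples.

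Transcripts of several other cells were present in both fractions. Summed oligodendrocyte genes, whose products form myelin, stood at 53130 to 150100 CPM in hypothalamus and 25250 to 113900 CPM in cortex, with overlap. In hypothalamus replicates 1 to 5 the sum was 150100, 53130, 89900, 100800 and 100100 CPM, above the astrocyte sum of the same library each time. In cortex it was above the astrocyte sum in replicates 1 to 4 and under it in replicates 5 and 6. Sums of different lists do not give shares of cells. Microglia genes summed to 485 to 1081 CPM in hypothalamus and 459 to 1559 CPM in cortex, also with overlap. Motile cilia genes summed to 3293, 2105, 2773, 3956 and 3472 CPM in hypothalamus and 121 to 341 CPM in cortex, with no overlap. Neuronal genes went the other way, at 229 to 340 CPM in hypothalamus and 466.1 to 1654 CPM in cortex. The part of these cells in the gene differences below was not tested beyond the values given.

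**Figure D2:**
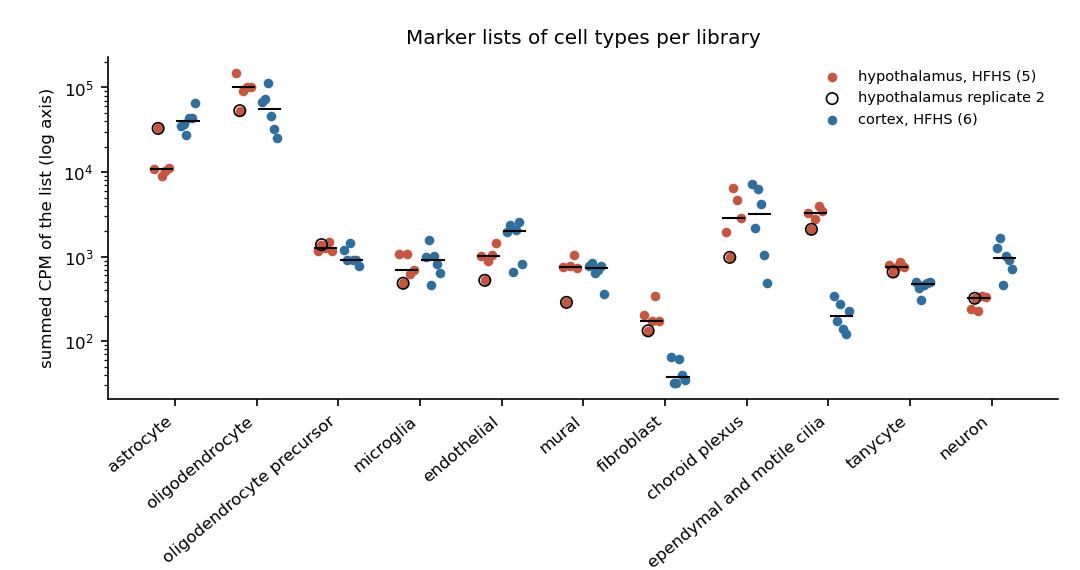
Summed CPM (log axis) of each list of cell type genes in each library, hypothalamus on HFHS in red (5) and cortex on HFHS in blue (6), with a bar at the median and a ring around hypothalamus replicate 2. The cilia, tanycyte, fibroblast and neuron sums separate the regions without overlap, the microglia and oligodendrocyte sums overlap, and hypothalamus replicate 2 alone reaches the cortex range of the astrocyte sum.

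Transcription factors of the embryonic territories separated the regions in both directions. Of 37 hypothalamic factors, 24 passed the filter on low counts, which a gene can pass through the region where it is high. Of those 24, 15 were higher and 0 lower in hypothalamus (median log2 fold change 4.06; 14 to 18 higher without any 1 library). Of 23 telencephalic factors, 20 passed the filter, of which 0 were higher and 16 lower (median -2.29; 15 or 16 lower without any 1 library). On SC, 20 of 26 hypothalamic factors were higher and 1 lower, and 19 of 22 telencephalic factors were lower.

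Nkx2-1, a homeobox factor that specifies the ventral diencephalon, stood at 8.48, 7.15, 6.72, 12.2 and 7.99 CPM in hypothalamus and at 0.113, 0.175 and 0.609 CPM in the lowest, median and highest cortex library. Every hypothalamus library exceeded every cortex library (log2 fold change 5.17, SE 0.46, adjusted p = 8.52e-06; chromosome 12, 56531958 to 56536908, GRCm38). Six3, an eye field and hypothalamic factor, stood at 40.4, 19.9, 17.5, 45.0 and 13.6 CPM against 0.799, 1.20 and 2.58 CPM. Irx5 and Irx3, Iroquois homeobox factors, were higher by 4.59 and 5.11 on the log2 scale (SE 0.37 and 0.49), as was Foxb1, a factor of the mammillary region, by 4.61 (SE 0.53). Six6, another eye field factor, stood at 3.25 to 7.80 CPM in hypothalamus and had a median of 0 in cortex, with a highest library at 0.124 CPM. No fold change is given for a gene whose median count in a region was under 3 reads, as for Six6. Those of Nkx2-1, Irx3, Foxb1, Rax, Gpr50, C1ql1, Fosb, Il1b, Tnf, Cebpb and Tekt2 here and below rest on cortex medians of 6 to 24 reads, so their size is less certain than their direction.

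Emx2, a homeobox factor of the developing cortex, stood at 1.42, 0.750, 0.656, 1.36 and 0.319 CPM in hypothalamus and at 16.9, 27.4 and 48.8 CPM in cortex. The groups did not overlap (log2 fold change -5.02, SE 0.46, adjusted p = 1.03e-05; chromosome 19, 59458372 to 59465357). Lhx2, a selector of cortical fate, Nr2e1, a factor of neural stem cells and glia, and Hopx, a factor of radial glia and astrocytes, were lower by -2.03, -2.69 and -2.35 (SE 0.36, 0.37 and 0.46). None of these 4 calls was lost when any 1 library was left out.

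**Figure D3:**
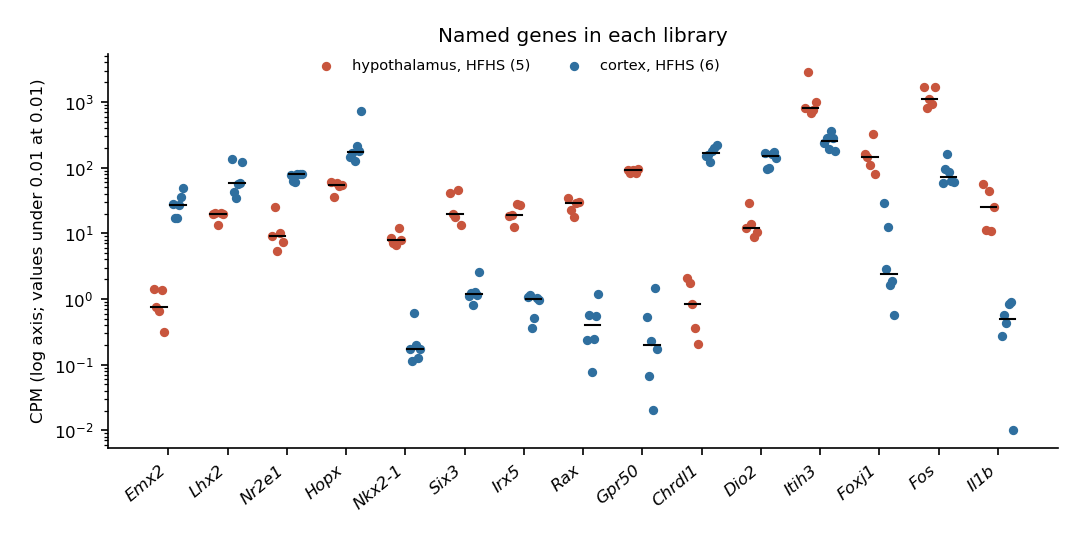
CPM (log axis) of 15 named genes in each library, hypothalamus on HFHS in red (5) and cortex on HFHS in blue (6), with a bar at the median and values under 0.01 drawn at 0.01. Emx2, Chrdl1 and Dio2 lie lower in all 5 hypothalamus libraries than in any cortex library, and Nkx2-1, Rax, Gpr50, Foxj1, Fos and Il1b lie higher.

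Genes of motile cilia, the beating organelles of ependymal cells, were higher in hypothalamus almost without exception. Of 30 cilia genes, 29 passed the filter, and 28 of those were higher and 0 lower in hypothalamus (median log2 fold change 4.36). The count was 28 whichever library was left out, and 28 of 29 on SC as well. The exception was Rfx3 (0.54, SE 0.28, adjusted p = 0.203), a factor that binds ciliary promoters and that many other cells also express.

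Motile cilia genes are known targets of RFX factors, which bind a motif called the X-box, and of Foxj1, and the promoters of the list were therefore read for that motif. RefSeq promoters (GRCm38.p6, 250 bases before to 50 bases after the start) were given for 23 of the 30 genes. GTNNC, 2 to 5 bases of any kind and then GNNAC, a form that is its own reverse complement and so covers both strands, occurred in the promoters of 17 of the 23 genes (73.9%), against 6414 of all 27025 genes (23.7%). This looser form was chosen after a stricter one, GTNNCC, 0 to 3 bases and then GGNNAC, had been counted in 5 of the 23 genes (21.7%) and in 4.4% of all genes. Every match of the stricter form is also a match of the looser one. A match is a description of the letters and not a measured binding site. Matches are shown for 6 genes of different roles, with the match in capitals and up to 25 bases on each side in lower case, read 5′ to 3′ on the strand of the gene.
Dynlrb2 (a dynein light chain, chr8:116504939-116505001, plus strand): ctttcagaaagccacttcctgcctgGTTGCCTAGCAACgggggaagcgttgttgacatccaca
Dnah9 (an outer arm dynein heavy chain, chr11:66168596-66168658, minus strand): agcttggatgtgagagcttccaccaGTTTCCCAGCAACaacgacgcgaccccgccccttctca
Tekt2 (a tektin of the microtubule doublets, chr4:126325680-126325742, minus strand): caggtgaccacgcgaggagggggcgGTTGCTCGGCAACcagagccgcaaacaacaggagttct
Tekt4 (another tektin, chr17:25471529-25471589, plus strand): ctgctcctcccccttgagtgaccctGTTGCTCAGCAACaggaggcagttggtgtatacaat
Hydin (a central pair protein, chr8:110266865-110266926, plus strand): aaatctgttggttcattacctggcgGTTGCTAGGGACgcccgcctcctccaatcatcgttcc
Rfx2 (an RFX factor itself, chr17:56831085-56831149, minus strand): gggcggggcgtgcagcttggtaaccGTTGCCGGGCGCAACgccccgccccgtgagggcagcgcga

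Those 6 genes were all higher in hypothalamus, as were 28 of the 29 cilia genes tested. Their direction therefore gives no information about the motif, whose part was not tested. Dynlrb2 stood at 150, 87.8, 129, 128 and 125 CPM in hypothalamus and at 1.12, 5.68 and 9.54 CPM in cortex (log2 fold change 4.50, SE 0.46, adjusted p = 2e-05). Dnah9 stood at 17.4, 10.7, 47.0, 28.8 and 18.2 CPM against 0.0355, 0.803 and 2.00 CPM (4.73, SE 0.83). In neither gene did a cortex library reach the lowest hypothalamus library.
Tekt2, Tekt4, Hydin and Rfx2 were higher by 4.63, 3.29, 3.82 and 2.91 on the log2 scale (SE 0.69, 0.28, 0.43 and 0.38), and none of them overlapped between regions.

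Foxj1, the master factor of motile ciliogenesis, stood at 164, 146, 108, 320 and 81.2 CPM in hypothalamus and at 0.576, 2.36 and 28.6 CPM in cortex (4.33, SE 0.87, adjusted p = 0.00312; chromosome 11, 116330704 to 116335399). Rsph1, a radial spoke protein, stood at 297, 157, 204, 361 and 322 CPM against 6.69, 9.92 and 21.9 CPM (4.46, SE 0.36). Ccdc39, which sets the spacing of the axoneme, and Tekt1 were higher by 3.48 and 3.65 (SE 0.26 and 0.29). Hypothalamus replicate 4 held the highest Foxj1, Rsph1 and Rfx2 values and replicate 2 the lowest summed cilia level.

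Tanycyte genes were higher in most but not all cases. Of 16 genes, 10 were higher and 2 lower (median log2 fold change 1.88). Rax, a homeobox factor that tanycytes need, stood at 34.5, 22.5, 17.6, 29.1 and 29.5 CPM in hypothalamus and at 0.0761, 0.396 and 1.18 CPM in cortex (5.80, SE 0.56, adjusted p = 1.39e-05). Gpr50, an orphan receptor of tanycytes linked to energy balance, stood at 90.5, 82.3, 90.9, 84.2 and 96.3 CPM against 0.0202, 0.202 and 1.49 CPM (7.69, SE 0.77, adjusted p = 1.84e-05; chromosome X, 71663667 to 71669257). Gpr50 was near constant over the 5 hypothalamus libraries, replicate 2 included. Col23a1, a membrane collagen, and Scn7a, a sodium sensor channel, were higher by 5.28 and 4.85 (SE 0.34 and 0.70). Fndc3c1 stood at 19.1, 40.1, 20.1, 34.0 and 29.6 CPM in hypothalamus, with a cortex median of 0 and a highest cortex library of 0.208 CPM.

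The 2 tanycyte genes that were lower in hypothalamus are also expressed by cortical cells. Dio2, the deiodinase that turns thyroxine into active thyroid hormone, stood at 12.1, 28.8, 13.7, 8.68 and 10.6 CPM in hypothalamus and at 96.3, 150 and 176 CPM in cortex (-3.23, SE 0.36, adjusted p = 3.57e-05; chromosome 12, 90724552 to 90738438). All 5 hypothalamus libraries lay under all 6 cortex libraries. Crym, a thyroid hormone binding protein, stood at 22.6, 26.8, 25.4, 30.1 and 28.6 CPM against 61.4, 71.6 and 191 CPM (-1.77, SE 0.31). Slco1c1, a thyroxine transporter of endothelium and astrocytes, was lower too (-2.46, SE 0.25, adjusted p = 1.61e-05). In the whole list of thyroid hormone and retinoid genes, 2 of 21 were higher and 5 lower, with a median of 0.08 (-0.08 to 0.31 without any 1 library); without hypothalamus replicate 5 or without cortex replicate 4 the counts were 1 and 3.

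Genes that vary between astrocytes of different regions were compared on CPM and also relative to the astrocyte list. Of 17 such genes tested, 2 were higher and 6 lower on CPM, with a median of -0.81. Chrdl1, a BMP antagonist that cortical astrocytes secrete to mature synapses, stood at 2.12, 1.74, 0.846, 0.357 and 0.206 CPM in hypothalamus and at 120, 167 and 222 CPM in cortex (-7.34, SE 0.63, adjusted p = 7.45e-06; chromosome X, 143285674 to 143394262). Every hypothalamus value lay far under the lowest cortex value. Itih3, a hyaluronan binding protein, stood at 819, 2865, 680, 766 and 1011 CPM against 178, 257 and 363 CPM (2.28, SE 0.39, adjusted p = 0.0011; chromosome 14, 30908572 to 30923760). Mfge8, a phagocytic bridging protein, stood at 566, 1547, 454, 440 and 496 CPM against 2054, 2626 and 4369 CPM (-2.005, SE 0.39, adjusted p = 0.00251). Slc6a11, the GABA transporter GAT-3, was not called (1.47, SE 0.54, adjusted p = 0.0742, and 0.56 without hypothalamus replicate 2), with 344, 2107, 743, 252 and 278 CPM in hypothalamus and 125, 258 and 444 CPM in cortex.

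Relative to the astrocyte list, the value of a gene is its log2 CPM minus the mean log2 CPM of the astrocyte genes in the same library. The 17 genes were each tested by an exact two-sided permutation test over the 462 splits of 11 libraries, whose smallest p is 0.002165. Because the astrocyte genes were lower in hypothalamus, the scale adds the same 1.14 to the difference of every gene (1.15 for Gfap, which is itself a member of the list). On this scale Itih3 was higher in hypothalamus by 3.21, Sparc by 2.71 and Slc6a11 by 2.15, and Chrdl1 was lower by -6.58 and Dio2 by -2.20, each at the smallest exact p of 0.002165. Slc6a9, the glycine transporter, was higher by 2.42 and Id4, an inhibitor of neurogenic factors, by 2.06 (exact p = 0.01082 for both), but neither was called on CPM, where the fitted differences were 0.93 and 1.04 (adjusted p = 0.287 and 0.191, edgeR). Mfge8 was lower by -1.02 relative to the list (exact p = 0.004329). Gfap, the astrocyte intermediate filament, differed by 0.34 and Kcnj10, the potassium channel Kir4.1, by 0.71, with exact p = 0.3853 and 0.05628. Hypothalamus replicate 2, far above the other hypothalamus libraries in Itih3 CPM, stood at 1.21 on this scale, in a group range of 0.90 to 1.21. Without it and cortex replicate 6 the differences of Itih3, Slc6a11 and Chrdl1 were 3.03, 1.71 and -6.52. The scale does not remove RNA of other cells.

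**Figure D4:**
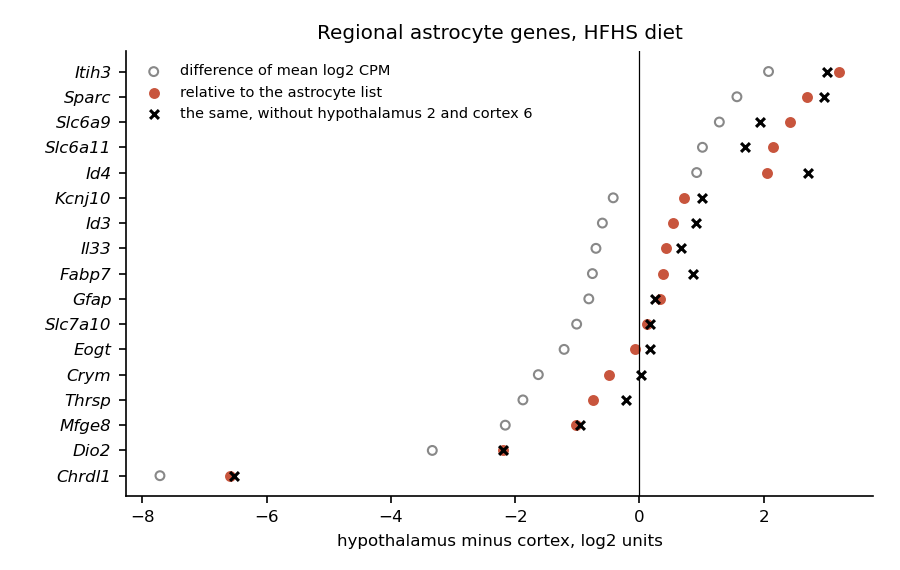
Hypothalamus minus cortex on HFHS in log2 units (x axis) for 17 regional astrocyte genes (y axis), as the difference of mean log2 CPM (open circles), relative to the astrocyte list (red) and relative to it without hypothalamus replicate 2 and cortex replicate 6 (crosses). Chrdl1 at -6.58, Dio2 at -2.20 and Mfge8 at -1.02 lie left of 0 on all 3 scales, and Itih3, Sparc, Slc6a9, Slc6a11 and Id4 right of it.

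Leading genes of glutamate handling, a main task of astrocytes, had lower levels in hypothalamus. Slc1a2, the glutamate transporter GLT-1, stood at 305, 1217, 459, 310 and 391 CPM in hypothalamus and at 2365, 3704 and 7699 CPM in cortex (-2.95, SE 0.47, adjusted p = 0.000593; chromosome 2, 102658659 to 102790784). Glul, glutamine synthetase, stood at 585, 918, 561, 382 and 472 CPM against 1877, 2115 and 5751 CPM (-2.20, SE 0.38, adjusted p = 0.00106). Neither gene overlapped between regions, hypothalamus replicate 2 included. Slc1a3, the transporter GLAST, and Aldoc, an astrocyte aldolase, were lower by -1.88 and -2.23 (SE 0.42 and 0.49). Slc1a2, Glul, Slc1a3 and Aldoc also belong to the astrocyte list, whose median given above was -0.73, and Aldoc is not among the glutamate genes. The part of the astrocyte share in these values was not tested. In the list of 15 glutamate genes, 6 were lower and 1 higher (median -0.80). The higher one was Gria1, an AMPA receptor subunit, at 77.3, 342, 67.8, 83.2 and 93.3 CPM against 18.8, 39.1 and 62.0 CPM (1.75, SE 0.45, adjusted p = 0.015). Of 16 connexin, potassium channel and endfoot genes, 0 were higher and 4 lower, and 9 lower without hypothalamus replicate 2. Aqp4, the water channel of endfeet, was not called (-0.57, SE 0.39, adjusted p = 0.353), but was at -1.05 (adjusted p = 0.0403) without that library.

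Most genes of oligodendrocyte precursors were higher in hypothalamus. Of 12 precursor genes, 9 were higher and 0 lower (median 2.71; 7 to 10 higher without any 1 library). Without hypothalamus replicate 2, 1 was lower. Their summed level overlapped, at 1156 to 1482 CPM in hypothalamus and 783.8 to 1459 CPM in cortex, where replicate 3 lay above 4 of the 5 hypothalamus libraries. Pdgfra, the growth factor receptor of these cells, stood at 29.2, 26.1, 48.1, 103 and 53.9 CPM in hypothalamus and at 0.780, 3.71 and 9.92 CPM in cortex (3.53, SE 0.55, adjusted p = 0.00051). C1ql1, a secreted complement-like protein, stood at 10.9, 3.93, 7.23, 37.9 and 24.2 CPM against 0.0761, 0.153 and 0.601 CPM (5.95, SE 0.72). Hypothalamus replicate 4 held the highest value of both genes and replicate 2 the lowest. Gpr17, a receptor of precursors committed to differentiate, stood at 18.7, 14.3, 33.8, 42.1 and 27.7 CPM against 2.97, 3.91 and 5.41 CPM (2.76, SE 0.30, adjusted p = 2.65e-05). Neu4, Lhfpl3 and Olig2 were higher by 3.67, 3.67 and 2.99 (SE 0.78, 0.45 and 0.43). Ptprz1 and Olig1, which astrocytes or mature cells also express, were not called (adjusted p = 0.0657 and 0.071, edgeR). Ptprz1 went the other way from the called genes, at 170, 667, 234, 233 and 221 CPM in hypothalamus and 456 to 712 CPM in cortex. Olig1 stood at 469 to 578 CPM against 119 to 571 CPM. Both genes enter the summed level.

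Of 14 mature oligodendrocyte genes, only Mbp and Mobp were called higher, and the median was 0.00 (-0.21 to 0.65 without any 1 library, the highest without cortex replicate 3, and 0.44 with voom). The count of 2 lay near the share of 12% higher over all genes tested. On SC, 7 of the 14 were higher and 0 lower, with a median of 0.80, beside 3542 higher of all 18656 genes tested there. On HFHS the 2 calls were lost without hypothalamus replicate 1, 4 or 5 or without cortex replicate 4 or 5, and that of Mobp also without hypothalamus replicate 3. Of 8 fibroblast genes, 5 were higher and 0 lower, with sums of 133 to 346 CPM against 31.7 to 65.2 CPM; the count was 3 without hypothalamus replicate 1, 3 or 4 or cortex replicate 2. Dcn, a matrix proteoglycan, stood at 90.0, 34.2, 41.0, 99.9 and 53.5 CPM against 4.99, 7.71 and 11.1 CPM (3.01, SE 0.32). Of 12 endothelial genes 0 were higher and 4 lower, but 1 lower without hypothalamus replicate 1, 2, 3 or 4 or cortex replicate 2, 4 or 5, and 8 lower without cortex replicate 3. Of 14 microglia genes, 0 were higher and 1 lower, and 0 to 2 lower without any 1 library. That count of 1 lay near the share of 7.16% lower over all genes tested.

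Neuronal transcripts, which a sort for astrocytes should hold at low levels, differed by kind. Of 15 genes, 2 were higher and 7 lower. Slc17a7, the vesicular glutamate transporter of cortical neurons, stood at 2.08, 5.29, 2.69, 3.10 and 3.15 CPM in hypothalamus and at 17.3, 36.1 and 122 CPM in cortex (-4.15, SE 0.57). Slc17a6, its counterpart in the diencephalon, stood at 3.30, 9.22, 2.97, 4.64 and 7.80 CPM against 0.337, 1.48 and 2.18 CPM (1.92, SE 0.47). The 2 transporters thus took opposite directions, each without overlap. Camk2a, a kinase of excitatory forebrain neurons, was lower by -4.27 (SE 0.42). Of 26 neuropeptide and secretory genes, 6 were higher and 3 lower, and 3 and 2 without hypothalamus replicate 1. Chga, a granin of secretory granules, stood at 146, 33.1, 26.2, 366 and 92.7 CPM against 2.89, 5.50 and 10.2 CPM (4.50, SE 0.63), and Scg2, another granin, was higher by 2.63 (SE 0.30). Scg3, a granin that astrocytes also express, was lower by -2.30 (SE 0.38).

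Immediate early genes, which rise within minutes of stimulation and also during tissue dissociation, were higher in hypothalamus. Of 24 genes, 15 were higher and 2 lower, with a median of 2.24, and the higher count was 15 or 16 without any 1 library. Their sum was 3166 to 7120 CPM in hypothalamus and 720 to 1320 CPM in cortex. Fos stood at 1692, 822, 1094, 935 and 1664 CPM in hypothalamus and at 58.7, 73.0 and 164 CPM in cortex (3.83, SE 0.33, adjusted p = 7.86e-06). Fosb, its paralog, stood at 24.5, 19.9, 31.2, 21.8 and 21.5 CPM against 0.225, 0.267 and 0.671 CPM (5.93, SE 0.38, adjusted p = 2.67e-06; chromosome 7, 19302696 to 19310051). The Fos genes did not overlap between regions, and replicates 1 and 5 held the highest Fos, Egr1, Junb and Atf3 values of the 5 hypothalamus libraries. Atf3, a stress factor, Egr1 and Junb were higher by 4.71, 3.55 and 3.27 (SE 0.36, 0.36 and 0.35). Egr3, a factor of the same family as Egr1 that follows neuronal activity, was lower, at 0.719, 0.527, 1.90, 2.08 and 0.863 CPM against 3.54, 7.38 and 11.8 CPM (-2.59, SE 0.47, adjusted p = 0.00148). The other lower gene was Arc, whose call was lost without hypothalamus replicate 5 (adjusted p = 0.0509). On SC, 14 of the 24 were higher and 1 lower.

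Some inflammatory genes, which form no list of their own and were named for the size of their change or after their values were seen, were higher in hypothalamus. Il1b, an inflammatory cytokine of myeloid cells, stood at 56.2, 11.1, 44.2, 10.9 and 25.5 CPM in hypothalamus and at 0, 0.50 and 0.905 CPM in cortex (5.86, SE 0.74, adjusted p = 0.000101; chromosome 2, 129364570 to 129371139). Socs3, which limits cytokine and leptin signalling, stood at 208, 143, 90.3, 98.4 and 175 CPM against 0.0751, 2.64 and 4.57 CPM (5.71, SE 0.66, adjusted p = 4.73e-05). Neither gene overlapped. Il1a, Tnf, Ccl4 and Nfkbiz were higher by 3.43, 3.86, 2.95 and 3.56 (SE 0.51, 0.78, 0.51 and 0.30). Cxcl2, a chemokine, stood at 1.74 to 10.2 CPM against 0 to 0.476 CPM. Cebpb, a factor of acute inflammation, spread from 0.544 to 56.1 CPM in hypothalamus (7.12, SE 1.14, adjusted p = 0.000623), and with voom it did not pass (6.36, adjusted p = 0.103). Hypothalamus replicates 1 and 3, which held the highest Il1b and Il1a values, also held the highest summed microglia level of the group. The microglia sum over regions overlapped, as given above, and its median was higher in cortex (908 CPM) than in hypothalamus (701 CPM). The part of microglia in these genes was not tested.

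Genes of reactive astrocytes were higher in 11 and lower in 1 of 24 cases (median 0.99; 8 to 12 higher without any 1 library). Gfap itself was not among them on CPM (-0.73, SE 0.32, adjusted p = 0.127). Vim, an intermediate filament that tanycytes and ependymal cells also carry, stood at 198, 120, 192, 246 and 212 CPM in hypothalamus and at 28.4, 55.5 and 75.3 CPM in cortex (1.79, SE 0.27, adjusted p = 0.00036). C3, a complement component, Cd44, a hyaluronan receptor, and Tm4sf1, a surface protein, were higher by 4.32, 2.25 and 2.11 (SE 0.84, 0.30 and 0.28). The lower gene was Osmr, the oncostatin M receptor (-1.77, SE 0.46). Cd74, the invariant chain of antigen presentation, stood at 254, 48.4, 262, 249 and 139 CPM against 17.04, 33.3 and 62.4 CPM, with overlap through hypothalamus replicate 2 (2.36, SE 0.42, adjusted p = 0.00136). Of 22 interferon and antigen presentation genes, 3 were higher, namely Cd74, H2-Aa and H2-Ab1, and 5 without cortex replicate 6. The count of 3 lay near the share of 12% higher over all genes tested.

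Most genes of cholesterol synthesis were lower in hypothalamus. Of 22 genes, 0 were higher and 16 lower in hypothalamus, with a median of -1.10 (11 to 17 lower without any 1 library, 13 with total-count scaling). Idi1, an isomerase of the isoprenoid branch, stood at 84.3, 122, 65.1, 85.7 and 82.7 CPM against 165, 222 and 321 CPM (-1.45, SE 0.26, adjusted p = 0.0013). Fdft1, squalene synthase, and Msmo1, a sterol oxidase, were lower by -1.56 and -1.56 (SE 0.33 and 0.36), and neither overlapped. Srebf2, the factor that drives the pathway, was not called, at 136, 196, 195, 139 and 119 CPM against 114, 172 and 240 CPM (-0.14, SE 0.24, adjusted p = 0.743), and its fitted value was 0.04 with total-count scaling. Astrocytes and oligodendrocytes are the main sources of these enzymes in brain. As given above, the astrocyte sum was under the cortex range in every hypothalamus library but replicate 2, and the oligodendrocyte sums overlapped. The part of these cells was not tested.

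The counts of other metabolic lists moved with single libraries. Of 24 genes of fatty acid oxidation, 9 were lower and 0 higher (median -0.71), but 3 without hypothalamus replicate 1, 3, 4 or 5, 4 without cortex replicate 2 or 4, 13 without hypothalamus replicate 2, and 18 without that library and cortex replicate 6. Hadhb, of the trifunctional protein, was lower by -1.14 (SE 0.29, adjusted p = 0.0137) and Etfdh, which passes electrons from the oxidation to the respiratory chain, by -0.84 (SE 0.20, adjusted p = 0.00826). Of 27 genes of glycolysis, glycogen and lactate, 7 were lower and 0 higher (median -0.56), and 11 without hypothalamus replicate 2 or without cortex replicate 6. The regulators that target phosphatase to glycogen were among them. Ppp1r3g stood at 4.13, 15.1, 3.71, 2.71 and 2.12 CPM in hypothalamus and at 51.2, 73.7 and 135 CPM in cortex (-3.82, SE 0.54, adjusted p = 0.000239), and Ppp1r3c was lower by -1.52 (SE 0.32). Of 81 nuclear genes of the respiratory chain, 10 were lower and 0 higher (median -0.98), but 1 to 3 lower without hypothalamus replicate 1, 3, 4 or 5, 6 without cortex replicate 2, 26 without cortex replicate 3 and 22 without cortex replicate 6, where 2 were higher and the median was -0.45. Without that library and hypothalamus replicate 2, 39 were lower. Of 77 ribosomal protein genes 1 was higher (median 0.16), a call lost without hypothalamus replicate 1, 3 or 5 or any of cortex replicates 1 to 5. Without cortex replicate 6, the library of short transcripts, 21 were higher (median 0.54), beside 2631 of 18455 over all genes tested. With total-count scaling 8 were higher, beside 2767 of 18638 over all genes tested.

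**Figure D5:**
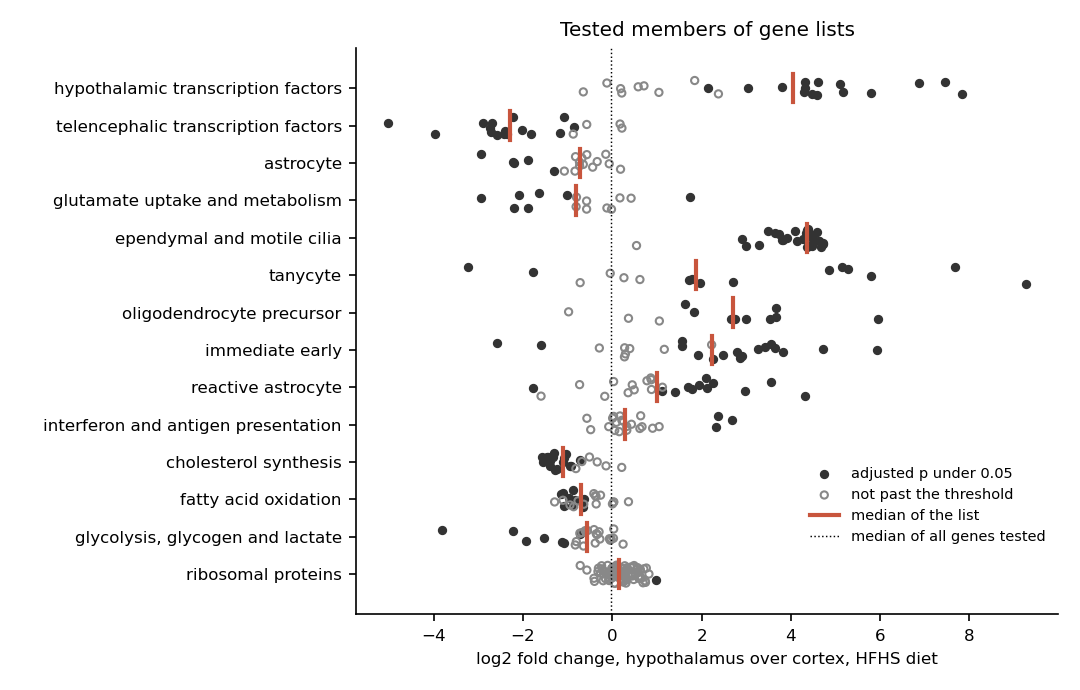
Fitted log2 fold change of hypothalamus over cortex on HFHS (x axis) for the tested members of 14 gene lists (y axis), 1 point a gene, filled where past the adjusted threshold, with a red bar at the median of the list and a dotted line at the median of all genes tested. The cilia median lies at 4.36 and the cholesterol median at -1.10, while the median of all genes is -0.02.

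Receptors and mediators of metabolic signals gave mixed directions. Of 21 genes of insulin, IGF and leptin signalling, 5 were higher and 3 lower (median 0.19, but -0.18 without hypothalamus replicate 3), 3 and 2 without hypothalamus replicate 4, and 5 and 5 without cortex replicate 6. Socs3, given above with the inflammatory genes, was 1 of the 5 higher genes (log2 fold change 5.71). Foxo1, a transcription factor that insulin restrains, stood at 86.6, 109, 88.4, 110 and 71.1 CPM in hypothalamus and at 14.2, 19.1 and 53.7 CPM in cortex (1.79, SE 0.35, adjusted p = 0.00234). Akt2, a kinase of the insulin cascade, stood at 74.3, 143, 81.1, 94.1 and 81.7 CPM against 255, 416 and 468 CPM (-2.03, SE 0.26, adjusted p = 0.00011). Neither overlapped. Jak2, the kinase of the leptin receptor, was higher by 1.15 (SE 0.26), and Igfbp2, which binds IGFs, lower by -1.79 (SE 0.41). Lepr, the leptin receptor, was low in both regions, at 0.608, 0.648, 5.06, 2.58 and 2.48 CPM against 0.575, 2.17 and 5.79 CPM, and showed no difference at this spread (-0.20, SE 0.68, adjusted p = 0.879).

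Among developmental pathways, the counts were 4 higher and 2 lower of 18 Wnt genes (median 0.16) and 2 higher and 1 lower of 12 hedgehog genes (median 0.30). Without hypothalamus replicate 2 they were 4 and 5 for Wnt (median -0.105) and 1 and 1 for hedgehog (median 0.01). Over all genes tested 12% were higher and 7.16% lower, and the hedgehog counts lay near those shares. Sfrp5, a secreted Wnt inhibitor, stood at 63.7, 185, 48.8, 50.8 and 68.5 CPM in hypothalamus and at 8.60, 13.01 and 16.3 CPM in cortex (2.71, SE 0.36, adjusted p = 0.000159). Dkk3, of a family of Wnt modulators, stood at 124, 154, 114, 154 and 150 CPM against 467, 576 and 642 CPM (-2.02, SE 0.20, adjusted p = 1.39e-05). Gli1, the transcriptional readout of hedgehog, was higher by 2.37 (SE 0.45), and Gli3, mainly a repressor, lower by -1.76 (SE 0.47, adjusted p = 0.0179), a call lost with length-scaled TPM. Both pairs took opposite directions without overlap.

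Whether the region difference depended on diet was asked by the interaction of region and diet over the 4 groups. No gene of 20668 passed (0%) in the main edgeR fit, and 2345 had an unadjusted p under 0.05. The smallest adjusted p was 0.0647, shared by Wrn, Kdelr1 and Gpr17 among the named genes. DESeq2 called 382 genes and voom 927. With edgeR, 810 were called with the replicate number as a block, 12 with a filter of CPM above 1 and 3 with RLE scaling. Without the cortex replicates 6 of both diets 558 were called, and without cortex HFHS replicate 6 alone 283, without cortex HFHS replicate 1 122, and without cortex SC replicate 6 73.

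Gpr17 was higher in hypothalamus by 2.76 on HFHS and by 5.74 on SC, an interaction of -2.99 (unadjusted p = 1.4e-05). Wrn, a DNA helicase, was higher by 0.87 on HFHS and 2.54 on SC (interaction -1.68, unadjusted p = 9.4e-06), and its HFHS call was lost without any of 6 single libraries. Foxo1, Lhx2 and Il1b, given next, were not among the 6 smallest p of the interaction. Foxo1 differed by 1.79 on HFHS and by 0.03 on SC (interaction 1.76, unadjusted p = 0.00023, edgeR). Lhx2 was lower by -2.03 on HFHS and -3.76 on SC (interaction 1.74, unadjusted p = 0.00071). Il1b was higher by 5.86 on HFHS and 2.34 on SC (interaction 3.52, unadjusted p = 0.00074). None of these passed after adjustment.

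Dapk3, a serine/threonine kinase of cell death and contraction, was called higher in hypothalamus on HFHS and was not called on SC. It stood at 32.96, 22.8, 10.7, 31.8 and 3 CPM in hypothalamus on HFHS and at 0.428, 0.662 and 1.81 CPM in the lowest, median and highest cortex library on HFHS. On SC the lowest, median and highest were 3.604, 24.9 and 37.2 CPM in hypothalamus and 1.98, 25.8 and 33.5 CPM in cortex. The regions did not overlap on HFHS and did on SC (log2 fold changes 4.59, SE 0.60, adjusted p = 0.000136, and 0.19, adjusted p = 0.84; interaction 4.41, unadjusted p = 9.8e-05; chromosome 10, 81183005 to 81193197).

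Genes that vary with Dapk3 in other libraries followed the same order. A set of 170 genes was taken from the 12 hippocampus libraries of the series. Members had r of at least 0.9 with Dapk3 after diet means were subtracted, and a mean log2 CPM of at least 3. Those libraries enter none of the main fits, but do enter the model of all 6 groups and the TMM factors behind CPM. The set was defined after values of Dapk3 had been seen. On HFHS, 114 of the 170 were higher and 4 lower in hypothalamus (median 1.19), and 83 to 121 were higher without any 1 library. On SC, 5 were higher and 26 lower (median -0.09), beside 3542 higher and 3226 lower of all 18656 genes tested. The interaction was positive for 170 of 170 genes with a median of 1.37, against 0.06 over all genes; 0 were called, and 120 had an unadjusted p under 0.05. The members were chosen to vary together, so their shared sign is not 170 independent observations. DESeq2 called 63 of the 170, and 73 were called without the cortex replicates 6 of both diets. The mean log2 CPM of the set was 4.64 to 5.71 in hypothalamus and 3.75 to 4.63 in cortex on HFHS, and 4.47 to 5.80 and 4.47 to 6.02 on SC. The 4 groups overlapped except for the regions on HFHS, whose nearest libraries almost met.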

How the data were processed

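RNA-seq of ACSA2-sorted cells was analysed in 11 libraries, hypothalamus (5) and cortex (6) on HFHS, with the 12 libraries of both regions on SC for comparison. The deposited files give, per transcript, an estimated count and a TPM value that the authors made with Salmon on GRCm38, with FastQC as a quality check, per the submitters' processing notes. Their versions, any trimming of reads and the transcript annotation were not given in the sources read. All transcripts of a gene were added up, which gave counts for 54119 genes (GENCODE mouse release 21, 139852 of 140948 transcripts matched, which left out 0.214% to 0.535% of the counts of a library) and rounded. Without strand, reads of overlapping genes and of paralogs cannot be assigned with certainty.

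Genes were tested with edgeR 4.0.16 in R 4.3.3 (filterByExpr on the groups compared, TMM, robust quasi-likelihood fit), with Benjamini-Hochberg adjustment over all genes tested and a threshold of 0.05. The fit used the HFHS libraries alone, since only their spread bears on the comparison, and the SC contrast and the interaction were fitted in the same way. Fold changes are log2, hypothalamus over cortex, and SE is taken as the absolute fold change over the root of its F statistic. A prior count of 2 enters log2 CPM. On simulated data with the depth of these libraries and 200 changed genes among 18638, 7% of 2-fold and 75% of 4-fold changes were recovered, and 6.82% of calls were false. Far more genes were called in the data, which makes the adjusted threshold less strict there, so these shares are not the power of the comparison.

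A list is described by its counts and its median beside those of all genes, with no test of the list. The groups, members and lists were chosen with earlier results of these data known. Genes named are the 10 largest and 10 smallest fold changes called at a mean log2 CPM of at least 3, up to 6 members of each list by p, the 6 smallest p of the interaction and a fixed set of region and cell type markers. Some genes were added after their values were seen, among them S100b, Sox9, Hopx, Neu4, Hydin, Dnah9, Tekt2, Rfx2, Il1a, Tnf, Cxcl2, Ccl4, Nfkbiz, Egr3, Arc, Srebf2, Six6, Slc17a6 and Osmr. Genes that meet the rule and are few in reads, or whose call rests on 1 library, are mostly given by count only. Some single genes that meet the rule are not reported here. Alternatives were DESeq2 1.42.0, voom with sample weights (limma 3.58.1), RLE or total-count scaling, other low-count filters, 1 model of all 6 groups, counts rebuilt from the deposited TPM (length-scaled TPM), the replicate number as a block, and the omission of single libraries. The counts of list members without single libraries, the Dapk3-linked set, the length-scaled interaction and the looser promoter motif were chosen after seeing the data. Promoter sequences came from the RefSeq table of GRCm38.p6, and gene coordinates from the GENCODE annotation.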

Additional observations from a re-analysis of the deposited data

Results flagged for a closer look

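Among 238 groups of 5 or 6 libraries (named genes and summed cell type lists in either region on HFHS), 1 library stood apart from the others in 32, 13.4%, by Dixon's ratio of the gap to the nearest library over the range. Chance flags about 1 in 20 groups. Hypothalamus replicate 2 accounted for 14 of the 32 and cortex replicate 6 for 10.

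Hypothalamus replicate 2 was the highest of its group for the summed astrocyte list (ratio 0.836) and for the glial genes Slc1a3 (0.736), Mfge8 (0.8), Itih3 (0.725), Sparc (0.734), Slc6a9 (0.711), Scg3 (0.798), Ptprz1 (0.765), Gria1 (0.803) and Sfrp5 (0.747). The same library was the highest for Kdelr1 (0.765) and Foxb1 (0.734), and the lowest for Hopx (0.72) and the summed mural list (0.731).

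Cortex replicate 6 was the highest of its group for Glul (0.833), Crym (0.762), Msmo1 (0.726), Hopx (0.714), Fdft1 (0.712), Slc7a10 (0.701) and Igfbp2 (0.68), and the lowest for Socs3 (0.767), Il1b (0.656) and the summed mural list (0.664). The other cases were in different libraries. In cortex these were Cd44 (0.649), Slc17a6 (0.712) and Tekt2 (0.652), lowest in replicate 5, and the summed tanycyte list (0.697), lowest in replicate 3. Nkx2-1 (0.679), Fndc3c1 (0.768) and Six6 (0.703) were highest in cortex replicates 3, 1 and 5 at levels near 0. In hypothalamus Lhx2 was lowest in replicate 3 (0.903).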

How the results depend on the processing

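The count of genes called on HFHS was 3576. It was 6859 with voom (3671 higher, 3188 lower), between 3409 and 5306 under the other alternatives, and between 2547 (without hypothalamus replicate 4) and 4739 (without cortex replicate 6) when 1 library was left out. The count on SC stayed within 1.5 times of 6768 in every alternative run. The interaction, 0 genes in edgeR, gave 382 with DESeq2, 927 with voom, 3 with RLE scaling, 12 with a filter of CPM above 1, 558 without the cortex replicates 6 of both diets, and between 0 and 283 without 1 library. The cause of these differences was not tested. With the replicate number as a block, 4173 genes were called on HFHS, 7060 on SC and 810 in the interaction. The labels do not say whether same-numbered libraries share animals, and the numbers were not treated as pairs, since deviations of same-numbered libraries correlated at -0.0529 to 0.132 and 1 of 5 correlated best with its own number. Fitted values that changed sign belonged to genes that were not called: Sox9 (0.134 with total-count scaling, -0.165 to 0.029 without 1 library), Srebf2 (0.036 with total-count scaling), and, without 1 library, Lepr (-0.777 to 0.201), Aspa (-0.728 to 0.014) and Slc4a5 (-0.354 to 1.879). With 5 and 6 pools, a gene that was not called may still differ, and depth limits the fold changes of genes with few reads in 1 region.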

Other observations

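The lists not described above follow, to be read against 12% higher and 7.16% lower over all genes tested. Of 14 genes of GABA and glycine handling, 2 were higher and 3 lower (median -0.59), and 8 lower (median -1.15) without hypothalamus replicate 2. Of 23 synaptogenic and secreted factors, 2 were higher and 5 lower (median -0.69), and 12 lower without that library. Of 11 sodium pump subunits, 0 were higher and 2 lower, and 4 lower without it. Of 23 genes of PPAR signalling, lipid storage and lipoproteins, 1 was higher and 4 lower, and 1 lower without hypothalamus replicate 1, 3, 4 or 5. Of 15 mitochondrially encoded genes 1 was lower, and 0 to 3 without any 1 library. Of 10 mural genes 2 were higher and 1 lower, and 0 to 3 of each without any 1 library.

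Of 12 choroid plexus genes, 3 were higher and 0 lower (median 0.52), and 2 to 4 higher without any 1 library, with a median of -0.56 without hypothalamus replicate 3 and 1.68 without cortex replicate 1. Calml4, a calmodulin-like gene of ciliated epithelia, stood at 78.0, 43.1, 97.2, 72.5 and 66.4 CPM in hypothalamus and at 1.63, 3.09 and 7.72 CPM in the lowest, median and highest cortex library, with no overlap (log2 fold change 4.31, SE 0.39, adjusted p = 8.97e-06, edgeR).

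Sparc, a secreted matrix protein that also marks endothelium and microglia, was higher in hypothalamus on CPM (1.503, SE 0.45, adjusted p = 0.0315, edgeR), a call lost without hypothalamus replicate 2 (1.04, adjusted p = 0.0834) or without cortex replicate 1, 2, 4 or 5, while on SC its difference was 0.19 (adjusted p = 0.65). Igfbp4, an IGF binding protein, was higher by 1.09 on HFHS (adjusted p = 0.019, edgeR), lost without hypothalamus replicate 4 (adjusted p = 0.0501), and stood at -0.10 on SC.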
